A study of Homo sapiens with 8 samples.

Results

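The genes described here are 34 interferon-stimulated genes, taken by name from a list of classical members of that family, out of 60106 genes in the count files. All 34 were found under their names, all are protein coding, and all 34 passed the filter on low counts that left 24185 genes for testing. RSAD2 passed it only through its H1975 libraries. Their levels were described in each line, H1975 was set against the other lines, and treated spheres were set against untreated ones. RNA was sequenced from pneumospheres, floating spheres that non-small cell lung cancer cells form in non-adherent flasks with growth factors and no serum. The 4 established lines were H23, H820 and H1975, labelled adenocarcinoma, and EBC1, labelled squamous cell carcinoma. Every line was sequenced once without treatment and once after 15 min with PD-L1s, a soluble PD-L1 protein, at 25 µg/ml and 0% serum; PD-L1 is the ligand of the checkpoint receptor PD-1. The labels name no genetic change, and each line stands for the tumour of 1 patient. The labels do not say whether the 2 libraries of a line came from separate cultures, so p-values measure the spread between these libraries only.

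Interferons are secreted proteins that infected or DNA-damaged cells release and that neighbouring cells sense through paired receptor chains. Type I and type III interferons activate the kinases JAK1 and TYK2, which phosphorylate STAT proteins. STAT2 joins IRF9 in a complex called ISGF3, which binds an interferon-stimulated response element (ISRE) in promoters, while type II interferon acts through a gamma-activated sequence (GAS). The induced proteins sense viral RNA, block viral entry and replication, or feed antigen presentation, and some tumour cell lines keep such genes on in culture without added interferon.

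The promoter letters of 6 members are shown first because the element that the ISGF3 complex reads is visible in them. Each is the 150 bases before an annotated start, 5′ to 3′ along the gene's strand, from RefSeq on build GRCh38.p14. The members were chosen with their values known: IFI27, RSAD2, IFITM1 and BST2 differed strongly between H1975 and the other lines, and ISG20 and IRF1 are the members that did not pass that test. Capitals mark the core of the ISRE in the first 5: GAAA, any 2 bases, then GAAA, on either strand (TTTC, any 2 bases, TTTC when read from the other strand). In IRF1, which has no such core in its window, capitals mark the GAS motif TTCNNNGAA.
IFI27 (chr14:94110586-94110735, plus strand): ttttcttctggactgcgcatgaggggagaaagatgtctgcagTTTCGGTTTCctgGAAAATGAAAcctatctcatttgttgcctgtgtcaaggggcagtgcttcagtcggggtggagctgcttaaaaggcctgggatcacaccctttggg
RSAD2 (chr2:6877627-6877776, plus strand): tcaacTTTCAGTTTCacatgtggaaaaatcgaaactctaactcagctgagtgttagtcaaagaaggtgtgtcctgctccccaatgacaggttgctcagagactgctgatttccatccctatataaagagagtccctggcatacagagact
IFITM1 (chr11:313890-314039, plus strand): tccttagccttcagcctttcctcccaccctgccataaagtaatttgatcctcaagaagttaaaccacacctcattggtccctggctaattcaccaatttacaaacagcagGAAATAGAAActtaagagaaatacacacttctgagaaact
BST2 (chr19:17405631-17405780, minus strand): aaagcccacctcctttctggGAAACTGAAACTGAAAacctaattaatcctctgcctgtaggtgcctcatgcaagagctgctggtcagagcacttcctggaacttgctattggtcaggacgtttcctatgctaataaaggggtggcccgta
ISG20 (chr15:88638866-88639015, plus strand): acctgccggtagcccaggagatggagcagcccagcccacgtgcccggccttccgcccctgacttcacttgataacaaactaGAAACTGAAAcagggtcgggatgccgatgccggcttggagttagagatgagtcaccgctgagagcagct
IRF1 (chr5:132490774-132490923, minus strand): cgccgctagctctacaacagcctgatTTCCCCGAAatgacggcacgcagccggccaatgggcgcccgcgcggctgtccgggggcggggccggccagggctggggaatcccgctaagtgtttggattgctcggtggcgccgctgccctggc

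IFI27 held a core on each strand, and its RefSeq entry has 2 starts whose windows share these matches. In BST2 the core occurs in 2 overlapping copies, and in RSAD2 it lies 145 bases before the second of 2 starts and is missing from the window of the first. Of the 34 members, 27 matched an entry of the RefSeq table, with 35 starts between them; IRF7, OAS2, OASL, IFIT2, IFITM2, MX2 and USP18 did not. In the 250 bases before a start, the ISRE core was present in 17 of the 27 members (63.0%), against 3.71% of 27305 genes and 3.02% of 35116 windows searched in the same way. The GAS motif was present in 9 of the 27 (33.3%), against 8.09% of genes. A match is a string of letters, and no binding was measured in these samples. The search required exactly 2 bases between the GAAA blocks. OAS1, DDX58 and IFI35, counted as without a core, hold 2 such blocks 1 base apart, and so does the first window of RSAD2. A missing match is therefore not a missing ISRE, and the medians below compare members by this match only. The 17 members with a core had H1975 differences from 0.18 to 7.82 on the log2 scale (median 3.87). The 10 without one had 0.19 to 5.02 (median 1.58), so the ranges overlapped up to 5.02. Of the 27 members, IFI27, RSAD2, IFITM1 and BST2 lay above that. The fitted values of OAS2, MX2 and IFITM2 did too, but these had no window and are in neither group.

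**Figure D1:**
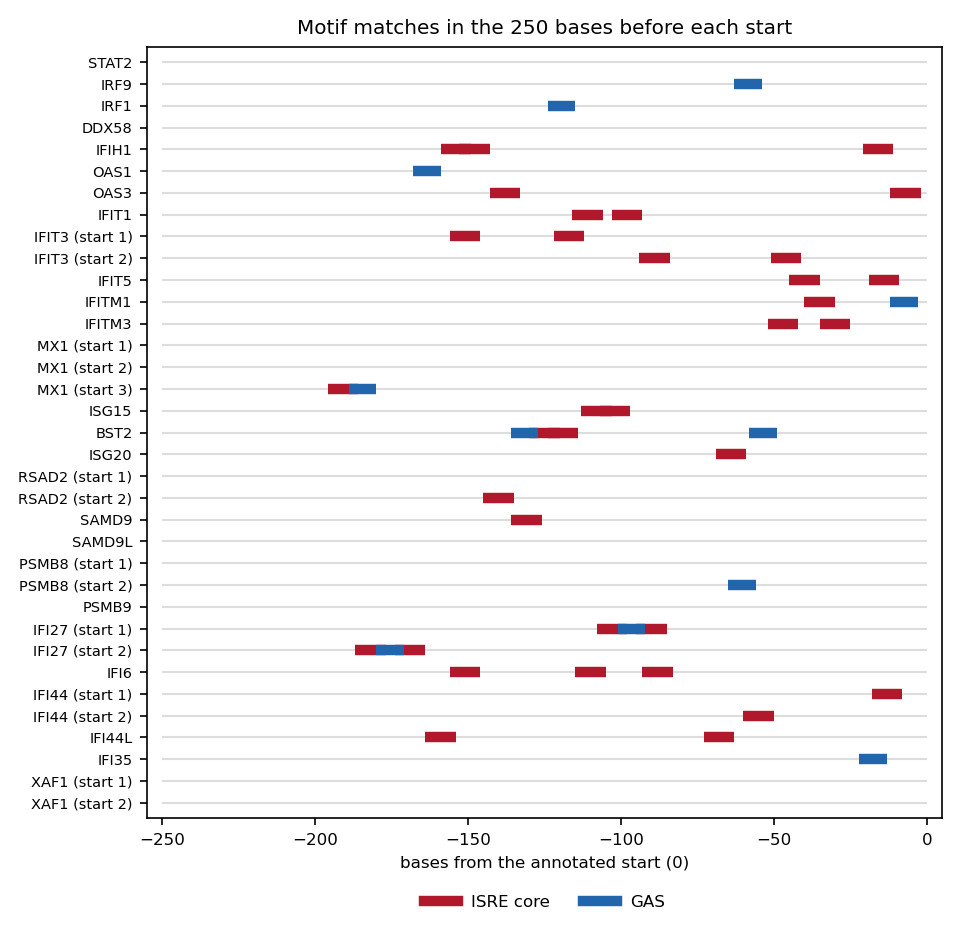
Positions of ISRE core (red) and GAS (blue) matches in the 250 bases before each of the 35 annotated starts of 27 matched members; the x axis gives bases from the start. Cores are seen in 17 members and GAS matches in 9, and STAT2, DDX58, SAMD9L, PSMB9 and XAF1 have neither match as searched.

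Total counts ran from 5559870 to 27524854 per library; both H1975 libraries and both H23 libraries were of like depth, whereas the treated EBC1 and H820 libraries were several times deeper than the untreated ones. Levels are given as CPM, counts scaled to library size after TMM normalisation. Where genes are compared with each other they are given as TPM, which also divides by gene length. In these bulk samples fewer cells expressing a gene and less RNA per cell cannot be told apart. Epithelial markers (6 genes) summed to 1774 to 4662 CPM in EBC1, H820 and H1975 but to 145 and 143 in H23. Among immune markers, CD3E, CD2, MS4A1, LILRA4, CLEC4C and NKG7 had at most 1 count in any library, and PTPRC at most 0.402 CPM; the summed immune level of 6.26 to 152 CPM was mostly CD68. The 3 immune markers with enough counts to test were called higher in H1975 against the others, as were most members and 31.0% of genes. They were CD68 (1.64), CD14 (3.78, with 6.11 and 4.67 CPM against at most 1.69 elsewhere) and CD79A (2.08). Also called higher were 2 endothelial markers, CDH5 (6.22, at 3.798 and 4.57 CPM) and KDR (5.16, at 7.51 and 6.22 CPM, with 7.28 and 6.74 in H820). Of 5 fibroblast markers tested, 2 were called higher and 0 lower. Against EBC1 alone, 1 of the 3 immune markers was called higher (background 28.2% of genes). The part of these markers in the members' result was not tested. Of the adenocarcinoma markers, NKX2-1 was highest in H1975 (78.4 and 75.2 CPM) and near 0 in EBC1. All 5 summed to 99.5 and 93.2 CPM in H1975, 48.1 and 70.4 in H820, and 1.92 and 2.47 in EBC1. H23, though labelled adenocarcinoma, had only 7.43 and 7.09 CPM, with 3 of the 5 under 1 CPM in each library. Of the squamous markers, TP63 stood at 87.2 and 86.7 CPM in H1975 and at most 1.89 elsewhere, EBC1 included, which goes against the labels, while SOX2 was lowest in H1975 and KRT5 and KRT14 were at most 0.141 CPM in every library.

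Summed, the 34 genes stood apart in H1975. Untreated and treated libraries summed to 3394 and 3548 CPM in H1975, 813 and 922 in EBC1, and 751 and 881 in H820. H23 was lowest with 373 and 355. The mean was 3471 ± 109 CPM (SD, n = 2 libraries) in H1975 and 682 ± 254 (SD, n = 6 libraries of 3 lines) elsewhere. Per length the sum was 3030.4 and 2993 TPM in H1975 and 369 to 609 TPM elsewhere. As a share of all counts it was 0.327% and 0.338% in H1975 and 0.0453% to 0.0798% in the other libraries. The 3 members with the most reads per length differed only in part between lines, and IFITM3 was among them in every library except untreated H820. In H1975 they were IFI27, IFITM3 and IFI6; in both H23 libraries IFITM3, IFI6 and STAT2; in both EBC1 libraries IFITM3 and PSMB8 led. In H820 the untreated library was led by BST2, STAT2 and IFI27 and the treated one by IFITM3, IFITM1 and BST2. No member had a mean under 1 CPM in H1975, 1 did in H820, 6 in EBC1 and 12 in H23.

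In the test of H1975 against the mean of the other 3 lines, 32 of the 34 members were called higher and 0 lower (edgeR quasi-likelihood test, Benjamini-Hochberg adjusted p under 0.05), where 31.0% of all genes tested were called higher and 22.6% lower. The members' median difference was 3.14 on the log2 scale, against 0.03 over all genes. The members were chosen with earlier results of these data known, so these counts describe the list and are no independent test of it. RSAD2 is among the 32 but passed the filter on low counts only through H1975. Both H1975 libraries lay above all 6 others for 31 of 34 members, as they did for 16.8% of genes. The exceptions to that separation were IRF1, ISG20 and PSMB8. H1975 had the highest mean for 31 members, EBC1 for 2 and H23 for 1, and H23 had the lowest for 20.

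**Figure D2:**
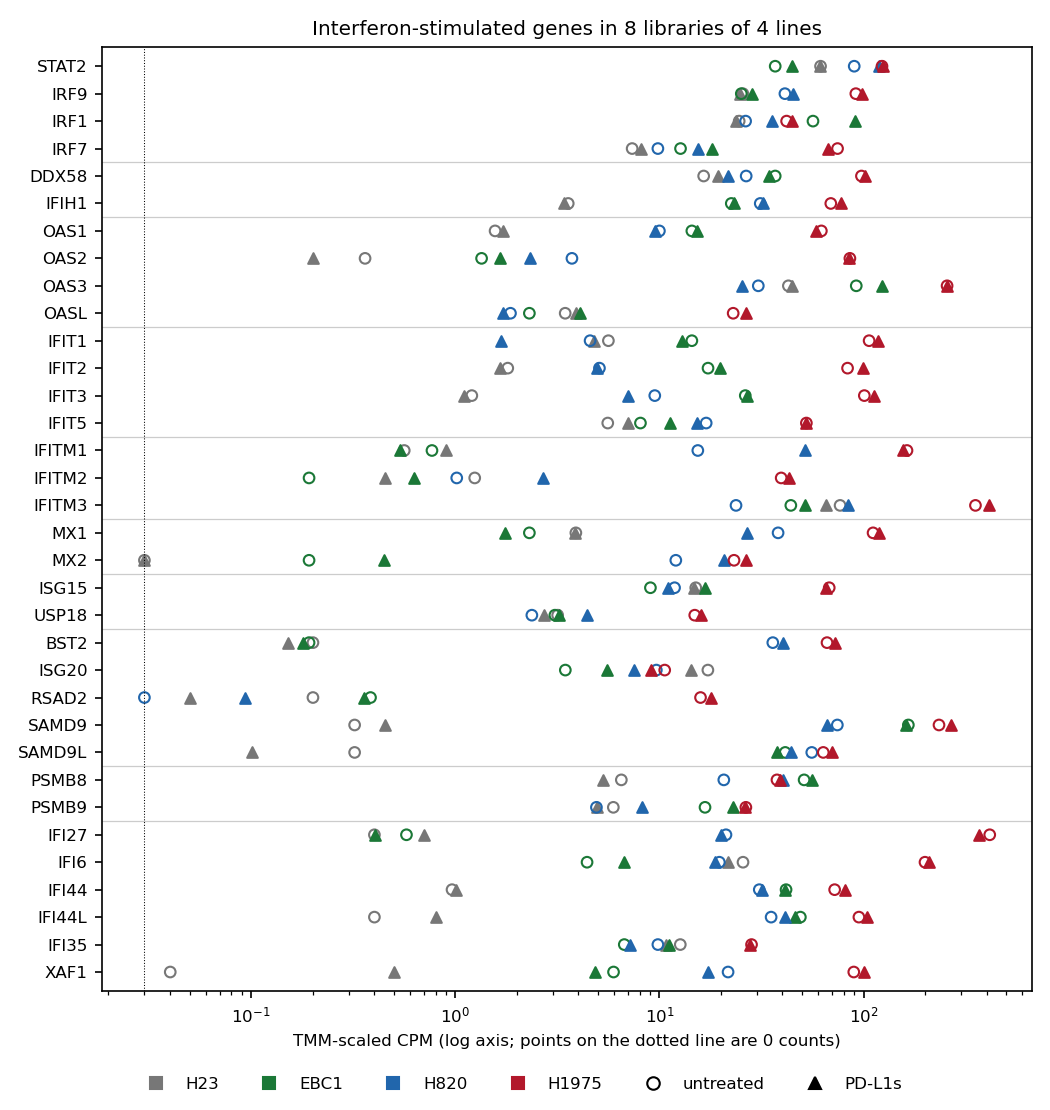
TMM-scaled CPM (log axis) of each of the 34 genes in all 8 libraries, coloured by line, with open circles for untreated and filled triangles for PD-L1s; grey lines part the functional groups. The red H1975 points lie to the right of all others in 31 of 34 rows, and H23 has the lowest mean in 20.

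**Figure D3:**
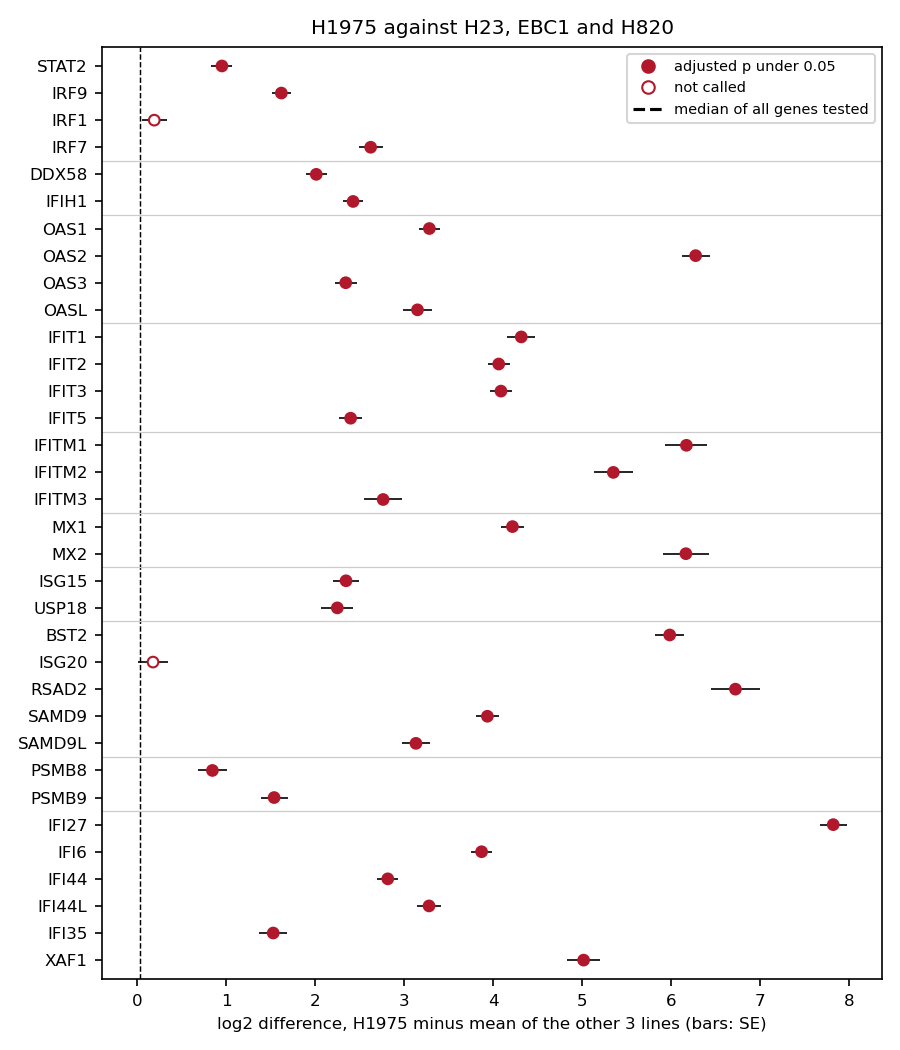
Fitted log2 difference of H1975 from the mean of the other 3 lines for each member, with SE bars; filled points passed the test and the dashed line is the median of all genes tested, 0.03. The range is 0.18 for ISG20 to 7.82 for IFI27; the MX2 point depends on how its 0 counts in H23 are treated and is no bound.

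The 4 transcription factors had a median difference of 1.28, and 3 of them were called higher. STAT2, the subunit that gives ISGF3 its activation domain, had 61.5 and 61.4 CPM in untreated and treated H23, 36.9 and 44.7 in EBC1, and 89.9 and 119.5 in H820, against 123 and 124 in H1975. H1975 was highest but only just above treated H820: the difference from the other lines was 0.95 ± 0.12 (SE, log2), and against H820 alone it was 0.25 and not called (adjusted p = 0.185). IRF9, the DNA-binding part of ISGF3, had 24.9 to 44.9 CPM in the other lines and 91.6 and 97.8 in H1975, a difference of 1.62. Its exons share 1838 of 1965 bases with another annotated gene on the same strand, so pairs were counted for both and its level is uncertain. IRF7, the factor that amplifies interferon production, had 7.35 and 8.15 CPM in H23, 12.7 and 18.1 in EBC1, and 9.82 and 15.5 in H820, whereas H1975 had 74.5 and 67.3. The groups were well apart, by 2.62 ± 0.14. IRF1, which is induced mainly by type II interferon and acts without ISGF3, was the exception: 24.6 and 23.6 CPM in H23, 56.5 and 91.1 in EBC1, and 26.4 and 35.4 in H820, with 42.0 and 44.5 in H1975. EBC1 was highest and H1975 lay within the range of the others, with a difference of 0.19 that was not called (adjusted p = 0.27). Against single lines, H1975 was lower than EBC1 by -0.76 (adjusted p = 0.00114) and higher than H23 by 0.84.

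The 2 cytosolic sensors of viral RNA were both higher in H1975. DDX58, which encodes RIG-I, had 16.5 to 36.9 CPM in the other lines and 97.6 and 102 in H1975, a difference of 2.01. IFIH1, which encodes MDA5, had 3.57 and 3.42 CPM in H23, 22.5 and 23.1 in EBC1, and 31.2 and 32.3 in H820, whereas H1975 had 69.1 and 77.6, a difference of 2.43. H23 was the lowest line for both, and neither H1975 library overlapped any other.

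All 4 members of the OAS family, which make or relay the 2-5A signal that switches on RNase L (OASL being an enzymatically inactive relative), were called higher. OAS2 had 0.361 and 0.201 CPM in H23, 1.34 and 1.66 in EBC1, and 3.73 and 2.32 in H820, against 85.7 and 85.3 in H1975, a difference of 6.28 ± 0.16. It separated the lines far more than its neighbours on chromosome 12. OAS1 had 1.57 to 15.2 CPM in the other lines and 62.1 and 58.4 in H1975 (difference 3.28), and OASL 1.72 to 4.08 against 22.96 and 26.4 (difference 3.15). OAS3 was well above 0 in every line, with 42.8 and 44.6 CPM in H23, 92.0 and 122 in EBC1 and 30.5 and 25.2 in H820. In H1975 it had 256 and 257 CPM, and the difference was 2.34. OAS1, OAS3 and OAS2 lie side by side at chromosome 12 113344582 to 113449528 in GRCh37, all on the plus strand.

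The IFIT family binds viral RNA that lacks host modifications. IFIT1 had 5.62 and 4.78 CPM in H23, 14.4 and 12.8 in EBC1, and 4.57 and 1.67 in H820, with 106 and 118 in H1975, a difference of 4.32 ± 0.16. EBC1 came second, and no other line came near H1975. IFIT2 and IFIT3 had differences of 4.06 and 4.09, again with EBC1 second and here with H23 lowest; IFIT3 had 1.20 and 1.11 CPM in H23, 26.3 and 26.9 in EBC1, and 9.48 and 7.01 in H820, whereas H1975 had 101 and 113. IFIT5 differed less (2.40), with 5.58 to 16.9 CPM in the other lines and 52.4 in each H1975 library. Of the IFIT2 exons, 356 of 4101 bases overlap a gene annotated as antisense that lies on the same strand in the files.

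The IFITM proteins sit in membranes and block viral fusion, and the 3 genes lie together at chromosome 11 307631 to 327537 in GRCh37. IFITM1 had 0.562 and 0.905 CPM in H23, 0.769 and 0.538 in EBC1, and 15.4 and 51.6 in H820, against 163 and 156 in H1975, a difference of 6.17 ± 0.24. H23 and EBC1 were near 0, H820 was intermediate and its 2 libraries differed from each other. IFITM3 was present in every line, with 76.7 and 65.4 CPM in H23, 44.0 and 51.5 in EBC1, and 23.7 and 83.6 in H820, with 353 and 409.7 in H1975 (difference 2.76). IFITM2 was at 0.192 to 2.69 CPM outside H1975 and at 39.5 and 43.3 in it (difference 5.35). These genes are near copies: 34.1% of the 50-base windows of IFITM2 transcripts, 32.0% of IFITM1 and 17.4% of IFITM3 occur in another gene, so some pairs could have been placed on the wrong member.

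The MX GTPases trap viral nucleocapsids. MX1 had 3.89 and 3.87 CPM in H23, 2.31 and 1.75 in EBC1, and 38.1 and 26.8 in H820, whereas H1975 had 111 and 119, a difference of 4.22. MX2 had 0 counts in both H23 libraries. It reached 0.192 and 0.448 CPM in the EBC1 libraries, 12.0 and 20.6 in those of H820, and 23.2 and 26.5 in those of H1975. Its level over both H1975 libraries was at least 370-fold higher than in H23, with 3 counts over both libraries as the floor, and 61.9-fold higher than in EBC1. Against H820 alone it was 0.61 higher on the log2 scale (adjusted p = 0.0132), so H820 and H1975 formed the upper pair of lines and H23 and EBC1 the lower. With H23 set to the floor, the difference from the other lines was at least 4.96, and the median of the list stayed at 3.14.

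ISG15, a ubiquitin-like protein that is coupled to newly made proteins, had 9.03 to 16.6 CPM in the other lines and 67.8 and 65.5 in H1975, a difference of 2.35. USP18, which removes ISG15 and dampens the type I receptor, had 2.37 to 4.41 CPM against 14.9 and 15.9 (difference 2.25). For both genes the H1975 libraries lay above all 6 others; for ISG15 the EBC1 libraries spanned the levels of H23 and H820. Of the 50-base windows of USP18, 23.4% are shared, nearly all with USP41.

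Among other antiviral effectors, BST2 (tetherin, which holds budding virions at the cell surface) was near 0 in 2 lines: 0.201 and 0.151 CPM in H23, 0.192 and 0.179 in EBC1, and 35.9 and 40.4 in H820, against 66.2 and 72.4 in H1975. The difference from the 3 lines was 5.99 ± 0.16, but against H820 alone it was 0.86. RSAD2 (viperin, a radical enzyme that makes a chain-terminating nucleotide) had 15.9 and 17.8 CPM in H1975 and at most 0.384 elsewhere, with 6 counts in all in H23, 10 in EBC1 and 2 in H820. The fitted difference was 6.73 ± 0.28 and rests on those few counts. RSAD2 passed the filter on low counts only through its H1975 libraries, so its call as higher there was favoured by the filter. SAMD9 and SAMD9L, neighbouring genes on chromosome 7 that stop poxvirus replication, were nearly silent in H23 alone. SAMD9 had 0.321 and 0.453 CPM in H23, 166 and 161 in EBC1, and 74.4 and 66.2 in H820, with 234 and 269 in H1975, and SAMD9L had 0.321 and 0.101, 41.3 and 37.7, 55.7 and 44.3, and 63.4 and 70.1 in the same order of lines. Their differences of 3.94 and 3.13 from the mean of 3 lines include that low level in H23; against EBC1 they were 0.62 and 0.76. ISG20, an exonuclease, was the other member that was not called: it had 17.3 and 14.2 CPM in H23, 3.46 and 5.51 in EBC1, and 9.65 and 7.48 in H820, whereas H1975 had 10.6 and 9.05. H23 was highest, and the difference for H1975 was 0.18 (adjusted p = 0.43).

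PSMB8 and PSMB9 are catalytic subunits of the immunoproteasome, which cuts peptides for presentation on MHC class I. PSMB8 had 6.50 and 5.28 CPM in H23, 51.1 and 56.1 in EBC1, and 20.7 and 40.2 in H820, against 37.6 and 39.1 in H1975. EBC1 was highest and treated H820 overlapped H1975; the difference of 0.84 (adjusted p = 2.1e-04) was -0.088 when H23 was left out. PSMB9 had 5.94 and 4.93 CPM in H23, 16.7 and 22.8 in EBC1, and 4.91 and 8.22 in H820, with 26.5 and 26.3 in H1975, a difference of 1.54. Against EBC1 alone PSMB8 differed by -0.48 (adjusted p = 0.0567) and PSMB9 by 0.40 (0.0946), and neither was called. PSMB9 shares 139 of 921 exonic bases with a noncoding gene on its strand.

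The remaining members are known mainly as markers of interferon exposure. IFI27, a small mitochondrial protein, had the largest difference of the 34 (7.82 ± 0.15, adjusted p = 3.9e-17): 0.402 and 0.704 CPM in H23, 0.576 and 0.403 in EBC1, and 21.2 and 20.1 in H820, whereas H1975 had 415 and 366. Over both libraries H1975 was 730-fold above H23, 897-fold above EBC1 and 19.3-fold above H820. With 789.9 and 677 TPM it was also the most abundant member in H1975. IFI6, which limits apoptosis and virus-induced remodelling of the endoplasmic reticulum, had 25.7 and 21.8 CPM in H23, 4.42 and 6.68 in EBC1, and 19.6 and 18.8 in H820, against 199.8 and 208 in H1975 (difference 3.87). XAF1, a binding partner of the apoptosis inhibitor XIAP, had at most 21.7 CPM in the other lines and 89.5 and 101 in H1975 (difference 5.02). IFI44 and IFI44L were near 1 CPM or below in H23, at 30.8 to 49.0 in EBC1 and H820, and at 72.1 to 104 in H1975, with differences of 2.82 and 3.28. IFI35 had 6.72 to 12.6 CPM elsewhere and 28.2 and 27.9 in H1975 (difference 1.53).

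Set against single lines, H1975 exceeded each of them in most members. Against H23, 33 of 34 were called higher and 1 lower, ISG20 with -0.68 (background 30.8% higher and 31.8% lower), and the median was 4.41. Against EBC1, 31 were higher and 1 lower (background 28.2% and 24.4%), with a median of 2.24. Against H820, 31 were higher and 0 lower (background 27.4% and 27.2%), with a median of 2.07, and STAT2, PSMB8 (0.32) and ISG20 (0.23) were not called. These contrasts share the H1975 libraries. H23 had the opposite profile: against the mean of the other lines 30 members were lower and 1, ISG20, higher (background 27.4% lower and 34.4% higher), with a median of -2.16. EBC1 was mixed, with 11 members higher and 16 lower (background 28.1% and 26.4%). Those higher were IRF1, OAS1, OAS3, IFIT2, IFIT3, SAMD9, SAMD9L, PSMB8, PSMB9, IFI44 and IFI44L. H820 was mixed too, with 13 higher and 14 lower (background 30.6% and 22.9%), and its higher members included IFITM1, MX1, MX2, BST2, IFI27 and XAF1. These counts depended on which lines each was set against. With H1975 left out, 33 members were tested. Then H23 had 22 lower and 3 higher (median -1.02) and EBC1 7 lower and 16 higher (median 0.67). H820 had 5 lower and 19 higher (median 0.70). Of 22491 genes in that run, 5971 were lower and 7667 higher for H23, 6439 and 6729 for EBC1, and 5771 and 6512 for H820. With H23 left out, EBC1 had 24 lower and 4 higher, and H820 23 lower and 6 higher. Of 22463 genes in this run, 6329 were lower and 6098 higher for EBC1, and 5677 and 6970 for H820.

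Receptor chains and the listed kinases and regulators were more often called lower than higher in H1975 against the mean of the other lines. Of 10 interferon genes, IFNA1, IFNA2, IFNK, IFNW1 and IFNG had 0 counts in every library, and only IFNE had enough counts to be tested. IFNE, the epithelial type I interferon, was highest in H820 with 14.1 and 5.11 CPM, while H1975 had 3.58 and 2.92 and neither H23 nor EBC1 exceeded 0.961; against the mean of the other lines it was called higher in H1975 (1.08, adjusted p = 0.0038). IFNB1 had at most 2 counts in a library, and IFNL1, a type III interferon, had 3 and 9 counts in H1975 and 0 in the other 6 libraries. Of the 6 receptor chains, IFNGR1 was called higher in H1975 (0.53) and 4 were lower (background 31.0% of genes higher and 22.6% lower). IFNAR2 had 15.4 and 16.8 CPM in H1975, 31.8 and 35.4 in H23, 19.6 and 18.4 in EBC1, and 170.4 and 191 in H820. IFNAR1 had 48.5 and 48.7 in H1975, 50.7 and 57.3 in H23, 44.4 and 50.5 in EBC1, and 223 and 258 in H820. For both genes H820 stood far above the rest. Against EBC1 alone, 2 receptor chains were called higher in H1975 and 1 lower (background 28.2% and 24.4%). Against H23 the counts were 2 and 3 (30.8% and 31.8%), and against H820 0 and 5 (27.4% and 27.2%). Among kinases and regulators of the pathway, the receptor kinase TYK2 was among those called higher (0.58). Of these 11 genes 6 were lower (background 22.6%), with PTPN11 (-1.10) and PIAS1 (-0.72), which are not kinases, the lowest.

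**Figure D4:**
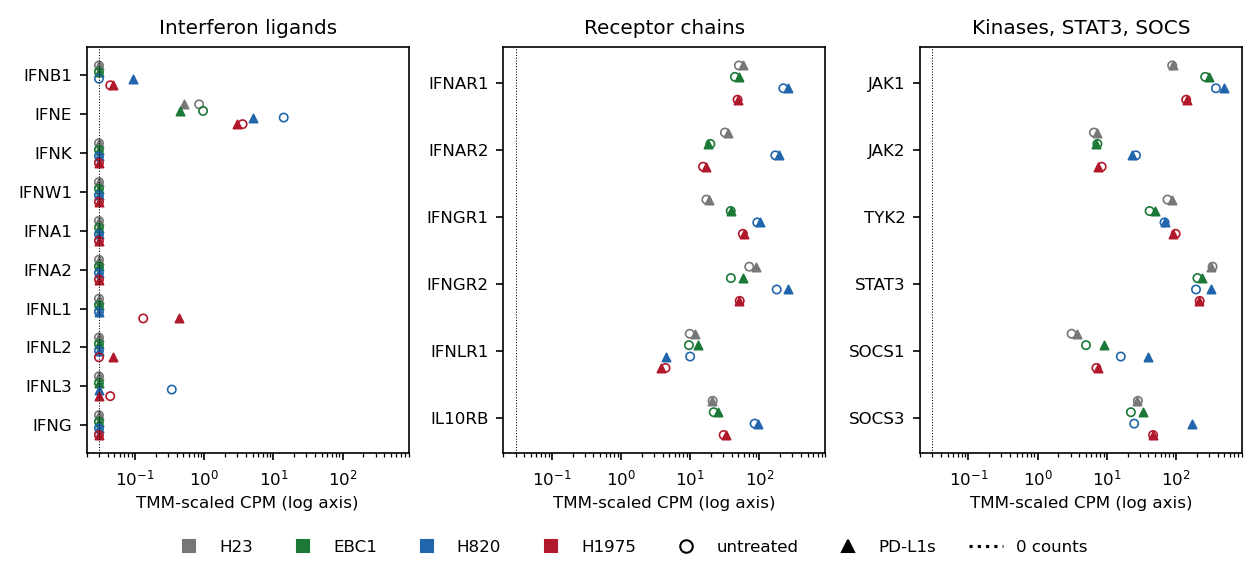
TMM-scaled CPM (log axis) of interferon ligands, receptor chains, and kinases, STAT3 and SOCS genes in all 8 libraries, coloured by line, with circles for untreated, triangles for PD-L1s, and 0 counts on the dotted line. Most ligands are at 0, IFNAR1 and IFNAR2 are highest in H820, and SOCS3 in treated H820 (172 CPM) lies away from its untreated partner (24.9).

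Genes of nucleic acid sensing were mostly higher in H1975 against the mean of the other lines. Of 16 tested, 11 were called higher and 2 lower (background 31.0% and 22.6%). Against EBC1 alone the counts were 9 and 5 (background 28.2% and 24.4%). They were 11 and 2 against H23 (30.8% and 31.8%) and 10 and 3 against H820 (27.4% and 27.2%). AIM2, a sensor of cytosolic DNA, had 22.6 and 27.8 CPM in H1975 and at most 2.64 elsewhere (6.44). IFI16, another DNA sensor, had 370.3 and 388 CPM in H1975, 1.49 and 1.11 in H23, and 57.7 to 85.6 in EBC1 and H820 (4.36). STING1, the adaptor below cGAS, had 64.1 and 63.4 CPM in H1975 and at most 33.3 elsewhere (3.42), and IKBKE (2.48) had 35.8 and 33.2 CPM in H1975, 23.6 to 39.8 in EBC1 and H820, and at most 0.442 in H23. Against the mean of the other lines, TLR3 (-1.33) and TBK1 (-0.54) were lower. A second list of 44 interferon-stimulated genes that are no members gave 37 higher and 1 lower of 43 tested, with a median of 1.62. The background was again 31.0% and 22.6%, for H1975 against the mean of the other lines. This list too was chosen with earlier results of these data known. Against EBC1 alone 27 were higher and 5 lower (median 0.71), against H820 29 and 3 (0.88), and against H23 38 and 1 (2.44). The backgrounds were those given for the sensing genes. CMPK2, the neighbour and functional partner of RSAD2, had 16.4 and 16.2 CPM in H1975 and at most 0.538 elsewhere. TNFSF10, the gene for the death ligand TRAIL, was the 1 gene lower against the mean of the other lines (-2.32). It had 4.45 and 6.79 CPM in H1975 and 10.4 to 77.1 elsewhere. It was chosen after its values were seen, as were SOCS3 and KRT19 below.

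After 15 min of PD-L1s no member was called in either direction in the fit over the 4 lines, where 0.0289% of genes were higher and 0.00827% lower. DESeq2 called 0 as well. The median of the 34 members was 0.08 on the log2 scale against 0.04 over all genes, and 23 of 34 were above 0, against 14496 of 24185 genes. At an unadjusted p under 0.05 there were 4 of the 34 members, as against 873 of 24185 genes, a larger share of the members. IFITM1 had 0.66 ± 0.25 (SE, unadjusted p = 0.0167), MX2 0.46 ± 0.19 (0.0296), IRF1 0.28 ± 0.12 (0.0390) and IFITM3 0.45 ± 0.21 (0.0468) in edgeR's quasi-likelihood test, and the adjusted p of each was 0.9995. No member moved in 1 direction in all 4 lines, as 7.03% of genes did upward and 3.82% downward. None of the ligand, receptor, kinase, sensing or further interferon-stimulated genes was called.

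**Figure D5:**
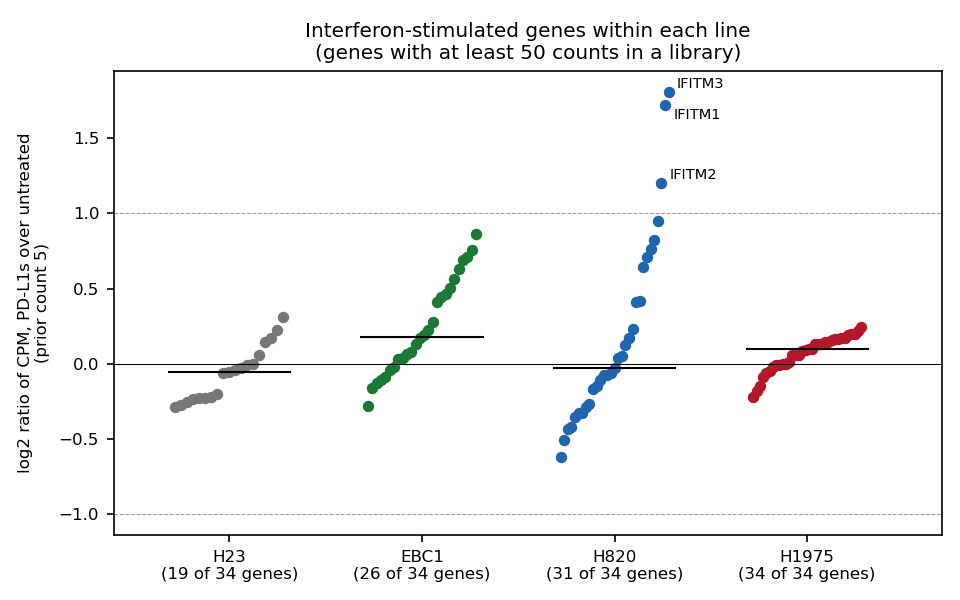
Log2 ratio of PD-L1s over untreated within each line for members with at least 50 counts in a library (points, sorted; bar, median; dashed lines, 2-fold). H1975 lies between -0.22 and 0.24, and IFITM3, IFITM1 and IFITM2 in H820 are the only points beyond 2-fold.

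Within single lines there is 1 library a condition, so ratios are described without a test. In H1975, where the genes were highest, all 34 members had enough counts and their log2 ratios ran from -0.22 to 0.24 (median 0.10, all genes -0.01). In H23 19 members had ratios from -0.29 to 0.31 (median -0.06), and in EBC1 26 members ran from -0.28 to 0.86 (median 0.18, all genes 0.13), with ISG15 highest. None of these passed 2-fold, as 0.113%, 0.136% and 1.33% of genes did upward and 0.0266%, 0.0906% and 0.115% downward in H1975, H23 and EBC1. In H820, 3 of 31 members were over 2-fold higher and 0 lower, against 4.23% of genes higher and 0.873% lower. These were IFITM3 with 1.81, IFITM1 with 1.72 and IFITM2 with 1.20, the near copies of 1 cluster on chromosome 11. In counts, IFITM3 went from 140 to 1799, IFITM1 from 91 to 1110 and IFITM2 from 6 to 58, between libraries of 5559870 and 23783679 counts. IFITM2 met the minimum of 50 counts through its treated library alone, and IFIT1 (27 and 36 counts, log2 ratio -1.31) did not meet it, so the filter bears on these counts. The median of all 31 was -0.03, against 0.14 over all genes in H820.

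Whether a line responded otherwise than the other 3 was tested with an interaction term. H820 has 1 library a condition, so the spread in this test comes from the other lines alone and H820 is assumed to vary like them, with 2 residual degrees of freedom. For H820, 3 members were called higher and 1 lower, where 2.63% of all genes were called higher and 0.368% lower. IFITM3 responded by 1.75 ± 0.22 more (adjusted p = 4.1e-06) and IFITM1 by 1.75 ± 0.26 more (5.1e-05). Thinned once to equal depth within each line, these were 1.77 and 1.67, and both stayed called. Other differences between the untreated and treated H820 libraries were not tested. PSMB8 responded by 0.96 ± 0.24 more (0.0223), and IFIT1 by -1.42 ± 0.40 (0.0487), on 27 and 36 counts in H820. The call for PSMB8 was lost after thinning (0.69, adjusted p = 0.17), and so was that for IFIT1 (-2.03, 0.072). PSMB8 was also not called with a minimum count of 50 or without H23, nor IFIT1 with DESeq2 or without the filter. Without H1975, IFITM1 had 1.31 (adjusted p = 0.40) and IFITM3 was the 1 member called higher. Other genes moved between the same 2 libraries, SOCS1 from 15.9 to 39.9 CPM, SOCS3 from 24.9 to 172 and the epithelial keratin KRT19 from 783 to 1449; their part in the result was not tested. For H23, EBC1 and H1975 no member was called, against 0.0207%, 0.0124% and 0.0165% of genes in either direction.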

How the data were processed

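RNA from 8 pneumosphere libraries, 1 untreated and 1 treated with PD-L1s from each of 4 cell lines, was sequenced as paired reads. The authors deposited raw counts of read pairs per gene; per the file headers they were made with featureCounts of Subread 2.0.0 on reverse-stranded pairs with mapping quality of at least 1, and a pair over several genes counted for each. The annotation was GENCODE release 28 mapped to GRCh37, per the file headers, and STAR 2.7.3a is named in the submitters' processing notes. Libraries were stranded total RNA after ribosomal RNA depletion, per the labels' protocols. From these counts, edgeR 4.0.16 (R 4.3.3) gave TMM-scaled CPM and quasi-likelihood tests with a term for line and one for treatment. Genes passed filterByExpr with a minimum count of 10, leaving 24185 of 60106 and 3 residual degrees of freedom (2 with the interaction term). The line term pairs libraries, since both of a pair are labelled with the same cell line. Benjamini-Hochberg adjustment covered all genes tested. Total counts of 5559870 to 27524854 leave low genes of the shallow untreated EBC1 and H820 libraries least precise. The prior count within lines was 5, and ratios needed 50 counts in a library; the floor for a count of 0 was 3 counts. TPM used the files' exonic lengths. Promoters were RefSeq windows of 250 bases. Alternatives were DESeq2 1.42.0, other scaling, filters, thinning to equal depth and leaving out lines or libraries.

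All 34 members were named by the rule fixed for them, of each other list up to 4 genes with the largest change among those called, and ligands, receptors, sensors, JAK1, TYK2 and SOCS1 whether called or not. The list of kinases and regulators holds 1 gene that is not reported here. Members and lists were chosen with earlier results of these data known.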

Additional observations from a re-analysis of the deposited data

Results flagged for a closer look

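Of 68 values tested (34 members in the 4 untreated and in the 4 treated libraries), 24 had 1 library far from the other 3, and in all 24 it was H1975, as the highest. Chance alone sets 1 sample apart in this way in about 1 in 20 groups of like samples, but these are 4 different lines: of all 24185 genes tested, 15.6% had a library so far apart in the untreated and 16.2% in the treated libraries, and 3.12% and 3.07% with H1975 as the highest. The 2 libraries of a line are not independent, so the untreated and treated values of a member are not separate evidence. The value is the gap to the next library as a share of the whole range, and 13 members were involved, 11 of them in both groups. Among the transcription factors IRF7 had 0.921 untreated and 0.832 treated. In the OAS family OAS2 had 0.961 and 0.975 and OASL 0.925 and 0.904. IFIT1 had 0.903 and 0.904. IFITM2 had 0.973 and 0.948 and IFITM3 0.839 and 0.910, whereas IFITM1 stood apart in untreated spheres only, with 0.909. ISG15 had 0.898 and 0.896 and its protease USP18 0.936 and 0.872. RSAD2 had 0.976 and 0.983. IFI27 had 0.950 and 0.946, IFI6 0.891 and 0.925, and XAF1 did so in treated spheres only, with 0.833.

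The responses of 4 members differed between H820 and the other lines by the interaction test: IFITM1 by 1.75, IFITM3 by 1.75, PSMB8 by 0.96 and IFIT1 by -1.42 on the log2 scale. H820 gave 1 library a condition, so the spread comes from the other lines. The calls for PSMB8 and IFIT1 were lost after thinning to equal depth, and those for IFITM1, PSMB8 and IFIT1 without H1975; for IFITM1 the adjusted p was then 0.40.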

How the results depend on the processing

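The number of members higher in H1975 was 32 or 33 in every alternative run, and the median lay between 2.30 without H23 and 3.59 without H820. Among called members 1 changed sign: PSMB8, at -0.088 without H23 (adjusted p = 0.685). Of the 2 uncalled members, IRF1 had -0.15 without H23 and ISG20 -0.23 without EBC1. Without H23 ISG20 was called at 0.59, and without EBC1 IRF1 at 0.66. Members lower against H23 numbered 0 without untreated H23 or treated H1975. Those lower against EBC1 numbered 2 with a minimum count of 50 and 0 to 2 with a library left out. H23 had 3 members higher without H1975. EBC1 had 4 higher and 24 lower without H23, and 16 higher and 7 lower without H1975. H820 had 6 higher and 23 lower without H23, and 19 higher and 5 lower without H1975. The counts over all genes in these runs are given above with the contrasts of single lines. The treated against untreated test gave 0 members under every setting, including without the line as a pairing block. For the H820 response, 1 was higher without H1975; 2 were lower with library-size scaling, 0 with DESeq2, no filter or thinning, and 0 to 3 with a line left out. For the EBC1 response, 2 were higher without H820 (IRF1 and ISG15). In that run 571 of all 23141 genes were called higher and 48 lower, against 2 and 1 of 24185 in the main fit. The causes were not tested. Depth limits members under 1 CPM, 12 of 34 in H23 by their mean.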
